A study of Mus musculus with 12 samples.

Results

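The 10 genes described here encode the machinery of MHC class II antigen presentation (H2-Aa, H2-Ab1, H2-Eb1, Cd74 and Ciita) and surface proteins that mark dendritic and Langerhans cells (Cd207, Flt3, Xcr1, Cd209a and Itgax). They were taken by symbol from a table of 29956 named genes, and all 10 were among the 18218 genes that passed the filter on low counts. RNA was sequenced from wounded back skin of 12 mice, 4 per group, collected on day 3 after full-thickness punch wounding. All 3 groups were B6.BKS(D)-Leprdb/db mice, whose leptin receptor is defective and which grow obese and diabetic, so no group represents a wound in a non-diabetic animal. One group of wounds was given Alcaligenes faecalis, which is Gram-negative, another Staphylococcus aureus, which is Gram-positive and a common cause of skin infection, and the vehicle group PBS with 10% glycerol. The labels used here state neither age nor sex. Each library is read as 1 mouse, because the series design states 4 mice per group.

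MHC class II molecules are pairs of an alpha and a beta chain that carry peptides from engulfed material to the cell surface, where CD4 T cells read them. The invariant chain Cd74 guards the empty groove, the protease cathepsin S degrades Cd74, and the H2-DM exchange factor helps the peptide to load. The coactivator Ciita switches the genes on, constitutively in dendritic cells and B cells and after interferon gamma in many other cells. In skin the class II genes are carried by Langerhans cells of the epidermis, by dermal dendritic cells of the cDC1 and cDC2 types, and by part of the macrophages and monocytes that enter a wound.

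Ciita does not bind DNA itself but docks on factors at 2 short elements, the X box, whose RFX half-site reads GCAAC, and the Y box, bound by NF-Y, which reads ATTGG. The promoters of H2-Aa and H2-Eb1 are shown because these members hold both elements in the same order. A further reason is that the level of H2-Eb1 set it apart from H2-Aa, H2-Ab1 and Cd74. They are the 120 bases before the start of each gene, from RefSeq on GRCm38.p6, 5′ to 3′ on the gene's own strand, at chr17:34287824-34287943 (minus strand) for H2-Aa and chr17:34305747-34305866 (plus strand) for H2-Eb1. Capitals mark GCAAC and ATTGG.
H2-Aa: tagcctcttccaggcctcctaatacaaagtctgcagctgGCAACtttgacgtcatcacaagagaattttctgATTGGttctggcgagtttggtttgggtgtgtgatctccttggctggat
H2-Eb1: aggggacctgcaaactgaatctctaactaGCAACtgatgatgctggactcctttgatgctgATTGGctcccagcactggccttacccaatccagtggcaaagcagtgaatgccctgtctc
The starts of the elements lay 33 bases apart in H2-Aa and 32 bases apart in H2-Eb1. Over 32851 promoter windows of 250 bases, searched on both strands, GCAAC was found in 29.9%, ATTGG in 33.8%, and the ordered pair with starts 25 to 40 bases apart on 1 strand in 0.673%; the letters of the elements do not overlap. Of the 7 members with a window in the table, H2-Aa and H2-Eb1 held the pair, and the windows of Cd207, Flt3, Xcr1, Cd209a and Itgax did not. Among other class II pathway genes the pair stood in 3 of 11 with a window (H2-Oa, H2-Ob and H2-Eb2), and among class I presentation genes in 0 of 9. The elements and their spacing were chosen with these promoters in view, and a match is a description of the letters. The search took exact letters only, so a window without a match may still hold such elements in other letters. No promoter is printed for H2-Ab1, Cd74 and Ciita.

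Library totals were 38.4 to 71.3 M (mega) estimated counts. Levels are given as CPM, counts per M of the library size after TMM scaling. Vehicle replicate 3 stood apart from the other vehicle libraries: the summed level of 6 adipocyte markers was 7671 CPM there and 1909 to 2550 CPM in the other 3, and the summed level of 8 neutrophil markers was 690.5 CPM there against 2171 to 8429 CPM. Keratinocyte markers (574 to 2461 CPM summed over 6 genes) and fibroblast markers (10449 to 18645 CPM over 6 genes) were present in all 12 libraries, as the tissue label skin would have it. Values without vehicle replicate 3 are given beside the results it moved most. The 3 comparisons share libraries, so their outcomes are not independent.

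Few of these genes separated the groups. H2-Eb1 was higher with A. faecalis than with S. aureus and was the single call among the 10 genes in any of the 3 comparisons (quasi-likelihood test of edgeR, Benjamini-Hochberg adjusted p under 0.05 over all genes tested). For A. faecalis against vehicle 0 of 10 were called, where 0.0110% of all genes were called, with 3 at an unadjusted p under 0.05 (7.68% of all genes). DESeq2 called 2 of the 10 there, H2-Eb1 and Cd209a (0.659% of all genes), and limma-voom called 0. For S. aureus against vehicle 0 of 10 were called, where 6.84% of all genes were called, with 2 at an unadjusted p under 0.05 (27.0%); DESeq2 and limma-voom each called 0 (15.8% and 7.02% of all genes). For A. faecalis against S. aureus 1 of 10 was called, where 12.7% of all genes were called, and 5 had an unadjusted p under 0.05 (28.2%); DESeq2 called 3 of the 10 (19.1% of all genes) and limma-voom 0 (12.1%). The edgeR shares of called members lay near or below those of all genes.

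H2-Aa encodes the alpha chain of the class II molecule I-A. Its level was 137, 210.2, 151 and 134 CPM in the 4 vehicle libraries, 148, 234, 181 and 180.3 CPM with A. faecalis, and 163, 87.8, 127 and 80.7 CPM with S. aureus. Replicate 2 was the highest library with vehicle and with A. faecalis, and S. aureus replicates 2 and 4 lay below every other library, while S. aureus replicate 1 lay among the other groups. The level with A. faecalis was 1.62 times that with S. aureus (95% interval 1.14 to 2.30, adjusted p = 0.0701), which missed the threshold. Against vehicle the log2 fold change was 0.23 (SE 0.231, adjusted p = 0.805) with A. faecalis and -0.46 (SE 0.231, adjusted p = 0.222) with S. aureus. In bulk tissue, fewer cells that carry the gene and less RNA per cell cannot be told apart, and this holds for every gene below.

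H2-Ab1, the beta chain that pairs with H2-Aa, followed it closely. It stood at 117, 184, 127 and 119 CPM with vehicle, 116, 192, 149.7 and 146 CPM with A. faecalis, and 147, 87.1, 130.1 and 76.5 CPM with S. aureus. All 3 groups overlapped, and again vehicle replicate 2 and A. faecalis replicate 2 were the highest and S. aureus replicate 4 the lowest. The log2 fold change was 0.45 (SE 0.229, adjusted p = 0.222) between A. faecalis and S. aureus, 0.14 (adjusted p = 0.896) between A. faecalis and vehicle, and -0.32 (adjusted p = 0.406) between S. aureus and vehicle.

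Cd74, the invariant chain, had the highest level per length of the 10 genes, with a median over the 12 libraries of 255 CPM per kb of its longest coding transcript against 133 for H2-Aa and 106 for H2-Ab1. Its level was 330.3, 513, 378 and 338 CPM with vehicle, 319, 549, 411 and 407 CPM with A. faecalis, and 410.0, 221, 340.2 and 199.6 CPM with S. aureus. The same libraries were high and low as for H2-Aa, and the groups overlapped. The log2 fold change between A. faecalis and S. aureus was 0.53 (SE 0.244, adjusted p = 0.184). It was 0.11 (adjusted p = 0.927) for A. faecalis against vehicle and -0.41 (adjusted p = 0.304) for S. aureus against vehicle.

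Ciita, the coactivator, was measured at 16.3, 17.5, 14.2 and 13.4 CPM with vehicle, 12.8, 20.9, 19.3 and 16.7 CPM with A. faecalis, and 15.5, 12.1, 13.3 and 7.54 CPM with S. aureus. S. aureus replicate 4 was again the lowest library and A. faecalis replicate 2 the highest, and the groups overlapped. The level with A. faecalis was 1.44 times that with S. aureus (95% interval 1.05 to 1.97, adjusted p = 0.118), and against vehicle the log2 fold changes were 0.18 (adjusted p = 0.833) with A. faecalis and -0.34 (adjusted p = 0.313) with S. aureus.

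These 4 genes kept one order of the group means, A. faecalis above vehicle above S. aureus, with no step called. Their levels also moved together from library to library. Over the 12 libraries, Pearson's r of log2 CPM was 0.97 between H2-Aa and H2-Ab1, 0.99 between H2-Ab1 and Cd74, 0.98 between H2-Aa and Cd74 and 0.90 between H2-Aa and Ciita. After the group means were subtracted the values were 0.99, 0.99, 0.99 and 0.82, so the genes also moved together among mice of 1 group. The points share library and depth, and the values are a description.

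**Figure D1:**
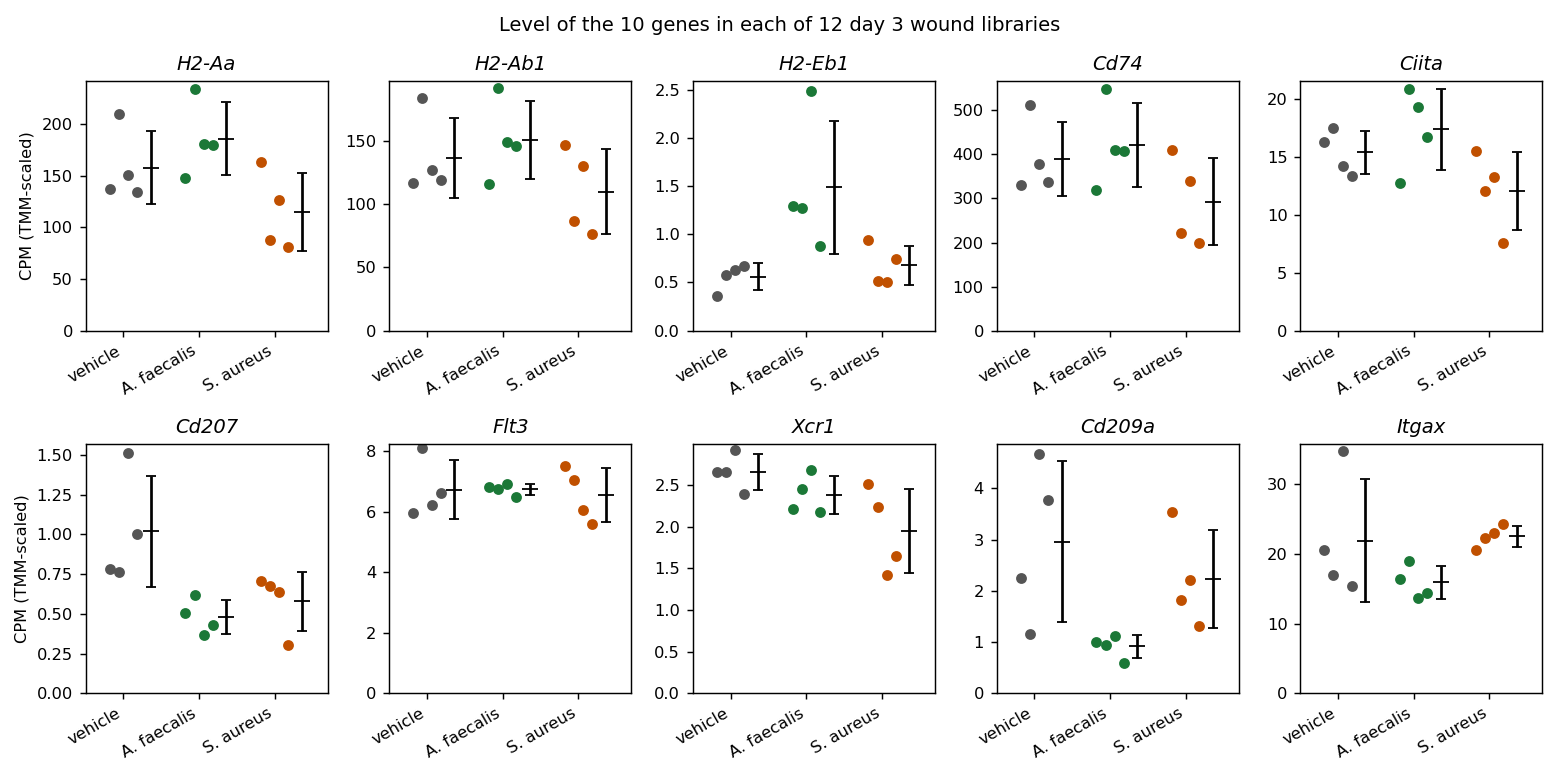
Level of each of the 10 genes in CPM (TMM-scaled, linear axes that start at 0 and differ between panels) in the 4 libraries per group; points are libraries in replicate order, and bars are the mean and SD. H2-Aa, H2-Ab1, Cd74 and Ciita share the highest library (A. faecalis replicate 2) and the lowest (S. aureus replicate 4), H2-Eb1 is highest in A. faecalis replicate 3 (2.49 CPM), and vehicle replicate 3 is the highest point for Cd207 (1.51 CPM), Xcr1 (2.92 CPM), Cd209a (4.67 CPM) and Itgax (34.7 CPM).

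H2-Eb1, the beta chain of the second class II molecule, I-E, was far lower than H2-Aa, H2-Ab1 and Cd74 and did not follow them. Whether these mice make a complete I-E molecule was not tested, and the gene of its alpha chain, H2-Ea-ps, is described in the last paragraph. The level of H2-Eb1 was 0.364, 0.575, 0.631 and 0.674 CPM with vehicle, 1.30, 1.28, 2.49 and 0.878 CPM with A. faecalis, and 0.940, 0.518, 0.508 and 0.741 CPM with S. aureus. Every A. faecalis library lay above every vehicle library, while S. aureus replicate 1 lay above A. faecalis replicate 4. The level with A. faecalis was 2.21 times that with S. aureus (95% interval 1.32 to 3.68, log2 fold change 1.14, SE 0.338, adjusted p = 0.0462).

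That call was close to the threshold. It held in 4 of 12 fits that left out 1 library each and was lost without vehicle replicates 2 or 4, without A. faecalis replicates 1, 2 or 3, and without S. aureus replicates 2, 3 or 4, with adjusted p up to 0.142; limma-voom (0.0533) and a fit with no filter on low counts (0.0559) also ended it. Against vehicle, the log2 fold change with A. faecalis was 1.41 (SE 0.339), larger than in the called comparison, with an adjusted p of 0.371 by edgeR and 0.0248 by DESeq2. S. aureus differed from vehicle by 0.26 (SE 0.347, adjusted p = 0.669). Its r with H2-Aa over the 12 libraries was 0.43, and 0.19 after the group means were subtracted.

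The values of H2-Eb1 rest on few reads, 20 to 157 estimated counts per library, where H2-Ab1 had 4026 to 13362. Per length, H2-Ab1 stood 82.9 to 444 times above H2-Eb1 in the 12 libraries. Between H2-DMb1 and H2-DMa, the beta and alpha chains of the peptide exchange factor, the gap was smaller, 3.52 to 14.2 times. Other class II pathway genes were as low as H2-Eb1, whose median over the 12 libraries was 0.424 CPM per kb. That median was 0.549 for H2-DMa, 0.378 for H2-Oa, 0.260 for H2-Ob and 0.0516 for H2-Eb2. It was higher for H2-DMb1 (4.34) and H2-DMb2 (7.03). Kallisto, named in the submitters' processing notes, divides reads between similar transcripts, so H2-Eb1 and its relative H2-Eb2, and H2-DMb1 and H2-DMb2, are uncertain as single genes. The part of that division, and of the summing of transcripts to genes, in the low level of H2-Eb1 was not tested.

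**Figure D2:**
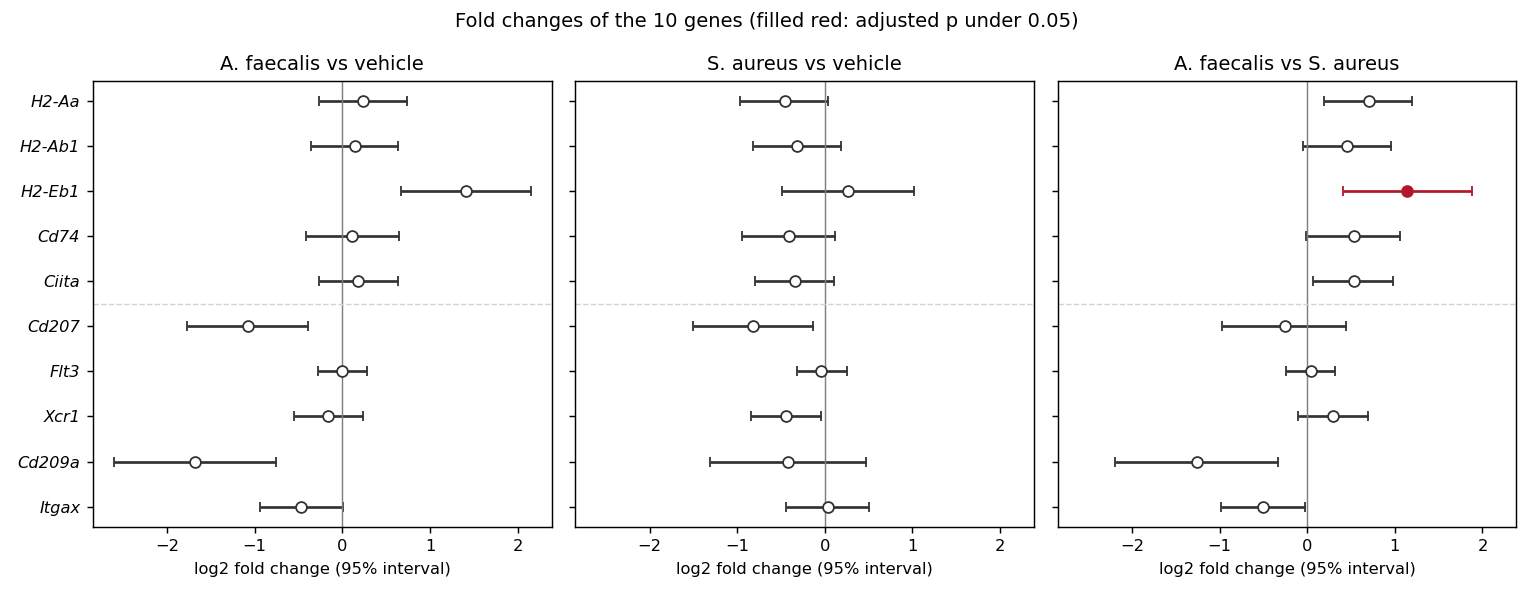
Log2 fold change of the 10 genes in the 3 comparisons with 95% intervals from the edgeR fit of all 12 libraries; filled red points have an adjusted p under 0.05 and the dashed line parts the class II genes (above) from the dendritic cell genes (below). The single filled point is H2-Eb1 for A. faecalis against S. aureus (1.14), and the lowest point of all is Cd209a for A. faecalis against vehicle (-1.68), which was not called.

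Flt3, the receptor whose ligand drives the growth of conventional dendritic cells, was the most even of the 10 genes. It stood at 5.95, 8.12, 6.22 and 6.61 CPM with vehicle, 6.83, 6.75, 6.91 and 6.48 CPM with A. faecalis, and 7.52, 7.06, 6.07 and 5.58 CPM with S. aureus. The A. faecalis libraries lay inside the range of the vehicle libraries, and the highest library was 1.45 times the lowest. The ratio of A. faecalis to vehicle was 1.0 (95% interval 0.826 to 1.22) and that of S. aureus to vehicle 0.976 (95% interval 0.803 to 1.19).

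Xcr1 encodes a chemokine receptor restricted to cDC1, the cells that present engulfed antigen to CD8 T cells. Its level was 2.65, 2.66, 2.92 and 2.39 CPM with vehicle, 2.21, 2.45, 2.68 and 2.18 CPM with A. faecalis, and 2.51, 2.23, 1.42 and 1.65 CPM with S. aureus. S. aureus replicates 3 and 4 were below all other libraries, and the other 2 S. aureus libraries lay inside the A. faecalis range. The level with S. aureus was 0.735 times that with vehicle (95% interval 0.557 to 0.970, unadjusted p = 0.0326, adjusted p = 0.147). A. faecalis differed from vehicle by a log2 fold change of -0.16 (adjusted p = 0.836) and from S. aureus by 0.29 (adjusted p = 0.335).

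Cd209a, a C-type lectin of cDC2 and monocyte-derived dendritic cells, had the largest fold change of the 10 genes. It stood at 2.26, 1.15, 4.67 and 3.77 CPM with vehicle, 0.997, 0.947, 1.12 and 0.593 CPM with A. faecalis, and 3.55, 1.83, 2.21 and 1.31 CPM with S. aureus. All 4 A. faecalis libraries lay below all 8 others, by a small step from A. faecalis replicate 3 to vehicle replicate 2, and the vehicle libraries were widely spread. The level with A. faecalis was 0.311 times that with vehicle (95% interval 0.164 to 0.590), and the log2 fold change of -1.68 (SE 0.423) had an adjusted p of 0.411 in edgeR and 0.0211 in DESeq2.

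Against S. aureus the level of Cd209a with A. faecalis was 0.417 times (95% interval 0.219 to 0.791, log2 fold change -1.26, SE 0.424, adjusted p = 0.0721). Without vehicle replicate 3 the log2 fold change was -1.36 for A. faecalis against vehicle and -1.26 for A. faecalis against S. aureus, and the latter then passed the threshold (adjusted p = 0.0443), as it did without vehicle replicate 2 (0.0357). The estimated counts were 25 to 296 per library, and Cd209a has near relatives (Cd209c and Cd209d among them) with which reads could be shared.

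Cd207 encodes langerin, the lectin of the Birbeck granules of Langerhans cells and of part of the dermal cDC1. Its level was 0.781, 0.766, 1.51 and 1.0 CPM with vehicle, 0.507, 0.617, 0.364 and 0.427 CPM with A. faecalis, and 0.705, 0.674, 0.635 and 0.304 CPM with S. aureus. The vehicle libraries lay above all 8 libraries with bacteria, and the A. faecalis and S. aureus libraries overlapped. Keratinocyte markers come from the epidermis, in which Langerhans cells lie. Over 6 genes they summed to 1186 to 1891 CPM with vehicle, 574 to 1107 CPM with A. faecalis, and 823 to 2461 CPM with S. aureus. A. faecalis and vehicle did not overlap in that sum, and the median log2 fold change of the 6 was -0.71, with 4 at an unadjusted p under 0.05 and 0 called by edgeR or limma-voom (DESeq2 called 1). S. aureus and vehicle overlapped in the sum, and the median log2 fold change was -0.17, with 1 at an unadjusted p under 0.05 and 0 called by edgeR. The part of keratinocytes in the level of Cd207 was not tested. The log2 fold change of Cd207 against vehicle was -1.08 (SE 0.315, adjusted p = 0.493) with A. faecalis and -0.82 (SE 0.315, adjusted p = 0.124) with S. aureus.

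Without vehicle replicate 3 the log2 fold changes of Cd207 against vehicle were -0.81 (adjusted p = 0.623) with A. faecalis and -0.54 (0.303) with S. aureus. Its estimated counts were 16 to 96 per library. The Langerhans cell label rests on Cd207 here: of 7 other Langerhans cell markers, Epcam, which these cells carry, was listed at 0 in all 12 libraries (the sources used here do not say how transcripts were summed to genes, so this 0 may be a failed estimate), and the other 6 are shared with keratinocytes, macrophages or other cells.

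Itgax encodes CD11c, an integrin chain of dendritic cells that macrophages and activated neutrophils also carry. It stood at 20.6, 17.0, 34.7 and 15.4 CPM with vehicle, 16.4, 18.9, 13.7 and 14.4 CPM with A. faecalis, and 20.6, 22.3, 23.0 and 24.3 CPM with S. aureus. Every S. aureus library lay above every A. faecalis library, and vehicle replicate 3 was above all others. The level with A. faecalis was 0.704 times that with S. aureus (95% interval 0.506 to 0.980, adjusted p = 0.152). This passed the threshold without vehicle replicate 3 (log2 fold change -0.51, adjusted p = 0.0157). The log2 fold change of A. faecalis against vehicle was -0.47 (adjusted p = 0.652) with that library and -0.14 (0.878) without it, and that of S. aureus against vehicle was 0.04 (adjusted p = 0.927) with it and 0.37 (0.127) without it.

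The groups did not overlap for 3 of 10 genes between A. faecalis and vehicle (H2-Eb1 higher, Cd207 and Cd209a lower), where 4.05% of all genes did not overlap. They did not overlap for 1 of 10 between S. aureus and vehicle (Cd207 lower; 15.1% of all genes) and for 2 of 10 between A. faecalis and S. aureus (Cd209a and Itgax lower; 23.3%). The median log2 fold change of the 5 class II genes was 0.18, -0.34 and 0.53 in the comparisons of A. faecalis with vehicle, S. aureus with vehicle and A. faecalis with S. aureus. With 1 library left out it ranged from 0.09 (without A. faecalis replicate 2) to 0.33 (without vehicle replicate 2), from -0.46 to -0.18 (without S. aureus replicates 1 and 4), and from 0.38 to 0.72 (without S. aureus replicates 4 and 1). The median of the 5 dendritic cell genes was -0.47, -0.42 and -0.26. The first 2 of these rest on vehicle replicate 3 and were -0.14 and -0.10 without it; the third ranged from -0.46 (without S. aureus replicate 4) to -0.15 (without A. faecalis replicate 3). The medians of all genes tested were -0.03, -0.04 and 0.02.

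Ratios of gene pairs inside a library were compared because library scaling largely cancels in them. They are mean differences of log2 ratios (0.1 CPM added), tested with a two-sided exact permutation test over the libraries, for which 4 against 4 allow no p below 0.0286. The ratio of Xcr1 to Cd209a was 1.08, 1.29, 1.18 and 1.72 with A. faecalis, -0.49, 0.27, -0.60 and 0.31 with S. aureus, and 0.23, 1.14, -0.66 and -0.64 with vehicle, all on the log2 scale. A. faecalis lay above S. aureus in every library, and vehicle replicate 2 reached into the A. faecalis range. The difference was 1.44 between A. faecalis and S. aureus (exact permutation p = 0.0286, adjusted over the 12 ratio tests 0.137) and 1.30 between A. faecalis and vehicle (p = 0.0571, adjusted 0.137), or 1.07 without vehicle replicate 3.

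The ratio of Cd207 to H2-Ab1 was lower in every A. faecalis library (-8.33 to -7.58) than in any S. aureus library (-7.57 to -6.82), with a difference of -0.68 (exact permutation p = 0.0286, adjusted 0.137), although the nearest libraries were 0.01 apart as printed. With nothing added to the CPM these groups overlapped (difference -0.71, exact permutation p = 0.0571). Against vehicle the difference with A. faecalis was -1.06 (exact permutation p = 0.0571, adjusted 0.137), or -0.84 without vehicle replicate 3. The ratio of H2-Ab1 to Itgax differed by 1.0 between A. faecalis and S. aureus (exact permutation p = 0.0571, adjusted 0.137), with S. aureus replicate 1 inside the A. faecalis range. The ratio of Ciita to H2-Ab1 differed by 0.03, -0.04 and 0.06 in the 3 comparisons (exact permutation p = 0.914, 0.771 and 0.600). None of the 12 ratio tests passed after adjustment. With no p below 0.0286 possible, a pass would have needed most of the 12 tests at that lowest p, so this outcome says little.

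**Figure D3:**
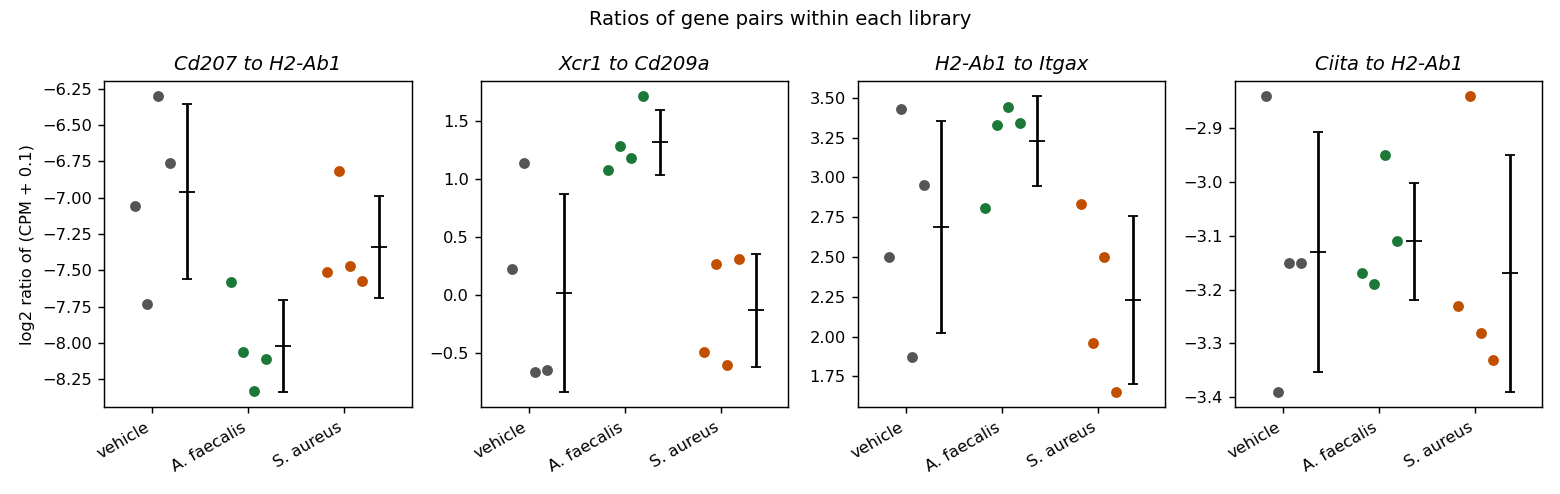
Log2 ratio of 4 gene pairs within each library (CPM with 0.1 added; axes differ between panels and do not start at 0), with points for libraries in replicate order and bars for the mean and SD of 4. The A. faecalis libraries lie above the S. aureus libraries for Xcr1 to Cd209a (1.08 to 1.72 against -0.60 to 0.31) and, by 0.01, below them for Cd207 to H2-Ab1, while Ciita to H2-Ab1 has group means of -3.13, -3.11 and -3.17.

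Some genes upstream of Ciita were called between S. aureus and vehicle. Of 12 genes for the inputs to Ciita and to dendritic cell growth, 4 rose and 1 fell with S. aureus against vehicle (percent called over all genes 3.87 higher and 2.97 lower), and 0 were called for A. faecalis against vehicle by edgeR, DESeq2 or limma-voom (0 at an unadjusted p under 0.05). Irf1, a transcription factor induced by interferon gamma that acts at a promoter of Ciita, was at 68.5, 75.0, 73.6 and 58.9 CPM with vehicle, 51.6, 80.2, 81.8 and 69.9 CPM with A. faecalis, and 215, 165, 221 and 119.6 CPM with S. aureus. All 4 S. aureus libraries were above the other 8, and Irf1 rose 2.61-fold against vehicle (95% interval 1.94 to 3.52, adjusted p = 0.00776), a call that held in all 12 leave-one-out fits. The receptor chains and kinases of the pathway were not called, with log2 fold changes of -0.04 for Ifngr1, 0.00 for Ifngr2, 0.18 for Jak1 and 0.19 for Jak2.

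Ifng, interferon gamma itself, was near the limit of detection at 0 to 8 estimated counts per library with vehicle and with A. faecalis and 13 to 33 with S. aureus. Its log2 fold change of 2.70 against vehicle (adjusted p = 0.0380) held in 4 of 12 leave-one-out fits (lost without vehicle replicates 1 or 4, A. faecalis replicates 2, 3 or 4, or S. aureus replicates 2, 3 or 4). Il10, a cytokine that lowers class II on macrophages, stood at 11.4 to 40.3 CPM with A. faecalis, 2.43 to 4.54 with S. aureus and 3.00 to 45.1 with vehicle. It was higher with A. faecalis than with S. aureus by a log2 fold change of 3.06 (adjusted p = 0.0188; lost without S. aureus replicates 3 or 4, and with limma-voom). Csf2, a dendritic cell growth factor, rose and Il10 fell with S. aureus against vehicle (adjusted p = 0.0480 and 0.0489). These calls held in few leave-one-out fits, those without A. faecalis replicates 2 or 3 for Csf2 and that without vehicle replicate 3 for Il10. Of the 12 genes, 1 to 4 were called with S. aureus against vehicle with any 1 library left out (1 without S. aureus replicates 2 or 3), and 2 with only these groups in the fit.

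With S. aureus, then, Irf1 was called higher than vehicle while Ciita, H2-Aa, H2-Ab1 and Cd74 had log2 fold changes between -0.46 and -0.32 that were not called. H2-Eb1 lay the other way, at 0.26 (edgeR adjusted p = 0.669), and was not called either. Between A. faecalis and S. aureus, Irf1 (-1.35, adjusted p = 0.00215) was lower with A. faecalis. The log2 fold changes of the same 4 class II genes were 0.45 to 0.70 and not called, and that of H2-Eb1 was 1.14 (adjusted p = 0.0462).

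Class I molecules present peptides made inside the cell. Of 11 class I presentation genes, Tap1, a subunit of the transporter that carries peptides into the endoplasmic reticulum, was the only call for S. aureus against vehicle (88.6 to 153 CPM against 62.8 to 83.6 CPM, fold change 1.68, adjusted p = 0.0259; lost without S. aureus replicate 3 and with only these 2 groups in the fit). Tap1 (-0.93, adjusted p = 0.00535) and its partner Tap2 (-0.52, adjusted p = 0.0272; lost without A. faecalis replicates 1, 3 or 4 or S. aureus replicates 1 or 3) were lower with A. faecalis than with S. aureus. Nlrc5, the class I counterpart of Ciita, had a log2 fold change of 0.46 with S. aureus against vehicle (adjusted p = 0.0752), where that of Ciita was -0.34. The median log2 fold change of the 11 class I genes lay within 0.10 of 0 in all 3 comparisons. Over all genes, 6.84% were called for S. aureus against vehicle and 12.7% for A. faecalis against S. aureus.

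Of 16 further class II pathway genes, 15 were in the table and tested, and 0 were called for A. faecalis against vehicle by any of the 3 tools (1 at an unadjusted p under 0.05). Lgmn, an endosomal protease that trims Cd74 and antigens, fell with S. aureus against vehicle by 0.46 on the log2 scale (adjusted p = 0.0407). That call held in 1 of 12 leave-one-out fits, the fit without vehicle replicate 3. Cd80, a costimulatory ligand for T cells, was lower with A. faecalis than with S. aureus, at 6.95 to 14.2 CPM against 16.4 to 36.2 CPM (log2 fold change -1.56, adjusted p = 0.0441). This was lost when vehicle replicate 2, any 1 of the A. faecalis libraries, or S. aureus replicates 2, 3 or 4 were left out. The medians of the 15 genes were -0.01, -0.10 and 0.16 in the order of comparisons above. Lgmn and Cd80 were the single edgeR calls in their comparisons, where 6.84% and 12.7% of all genes were called. There 2 and 7 of the 15 had an unadjusted p under 0.05 (27.0% and 28.2% of all genes). DESeq2 called 2 and 4 (15.8% and 19.1% of all genes), and limma-voom 2 and 1 (7.02% and 12.1%). With only the 2 groups compared in the fit the counts were 0 and 5, and without vehicle replicate 3 they were 1 and 4.

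**Figure D4:**
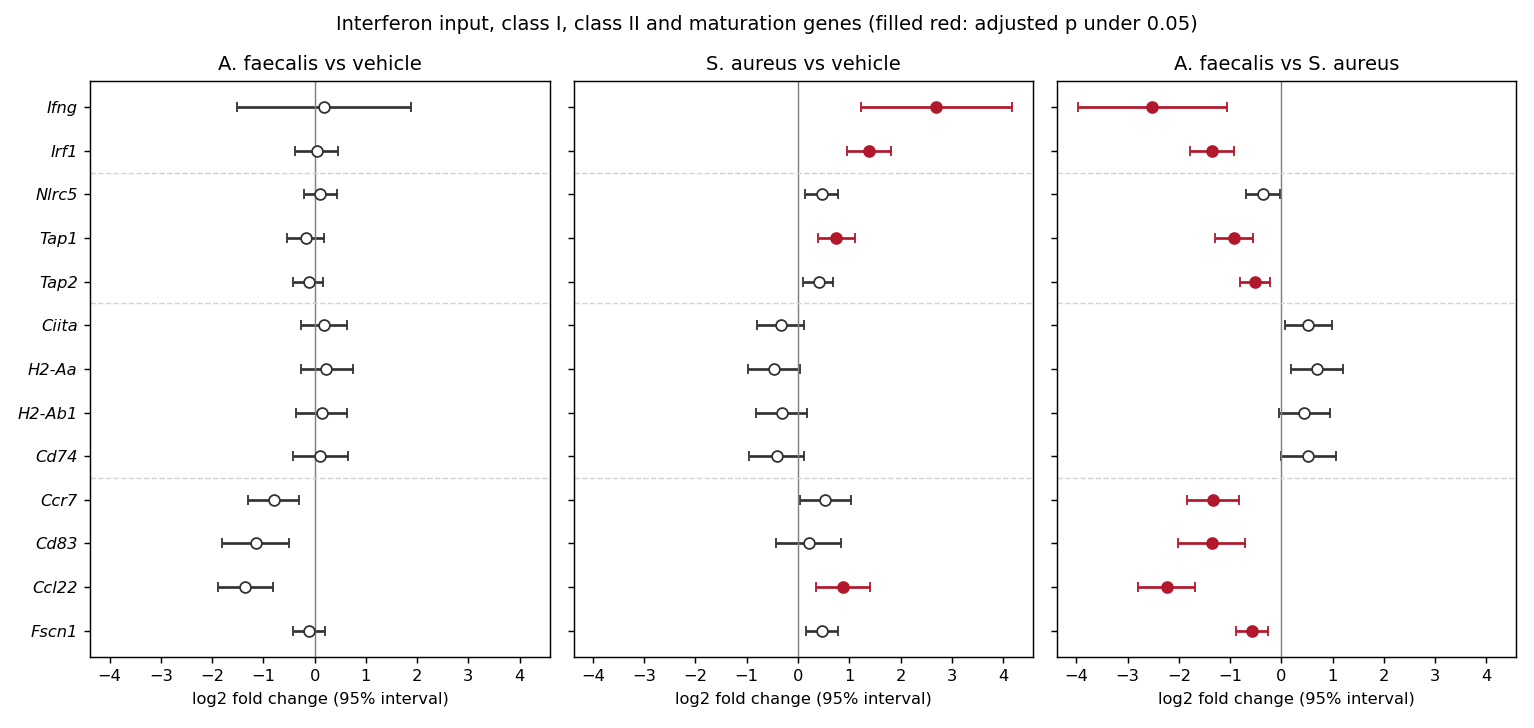
Log2 fold change with 95% intervals in the 3 comparisons for chosen genes of interferon input, class I, class II and dendritic cell maturation, parted by dashed lines. Filled red points have an adjusted p under 0.05. Not drawn, among others, are H2-Eb1 (0.26 for S. aureus against vehicle) and Relb (0.56 for A. faecalis against S. aureus), both uncalled there. H2-K1, H2-D1 and B2m (-0.04, -0.05 and -0.03 for S. aureus against vehicle) are not drawn either. For S. aureus against vehicle Irf1 (1.38), Ifng (2.70) and Tap1 (0.75) are filled to the right while Ciita, H2-Aa, H2-Ab1 and Cd74 are open and left of 0; for A. faecalis against S. aureus Ccr7, Cd83, Ccl22 and Fscn1 are filled to the left.

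Of 9 genes of mature, migrating dendritic cells, 5 were lower with A. faecalis than with S. aureus, where 7.62% of all genes were lower, and the list's median log2 fold change was -0.79. Ccl22, a chemokine that draws CCR4-bearing T cells, stood at 1.94, 3.11, 1.74 and 2.06 CPM with A. faecalis, 14.6, 9.41, 10.3 and 7.60 CPM with S. aureus, and 6.42, 7.07, 4.92 and 4.32 CPM with vehicle. The 3 groups were fully apart, and Ccl22 was 0.212 times as high with A. faecalis as with S. aureus (95% interval 0.145 to 0.311, adjusted p = 0.000779).

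Ccr7, the receptor that guides dendritic cells to lymph nodes, was 0.396 times as high with A. faecalis as with S. aureus (adjusted p = 0.00432), and Cd83, a maturation marker that stabilises surface class II, 0.390 times (adjusted p = 0.0133). The calls of these 3 genes held in all 12 leave-one-out fits. Fscn1 and Il12b were the other 2 of the 5, with calls that held in 7 and 2 of the 12 fits (Fscn1 needed A. faecalis replicates 2, 3 and 4 and S. aureus replicates 3 and 4; Il12b held only without vehicle replicate 3 or A. faecalis replicate 2). The count of 5 was 3 without A. faecalis replicates 3 or 4 or S. aureus replicates 3 or 4. Relb, a transcription factor of dendritic cell maturation named here after its values were seen, lay the other way, at 45.8 to 68.8 CPM with A. faecalis and 35.9 to 42.8 CPM with S. aureus with no overlap, and was not called (log2 fold change 0.56, adjusted p = 0.0639). Against vehicle, 0 of the 9 were called with A. faecalis (4 at an unadjusted p under 0.05; DESeq2 called 2, limma-voom 0), with log2 fold changes of -1.35 for Ccl22 (adjusted p = 0.172), -1.15 for Cd83 (0.411) and -0.80 for Ccr7 (0.487). With S. aureus, Ccl22 rose against vehicle (log2 fold change 0.88, adjusted p = 0.0491), a call that held in 2 of 12 leave-one-out fits, which were without replicate 2 of vehicle or of A. faecalis.

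Other markers of the subsets were called in part. Of 7 further cDC1 markers (Clec9a, Batf3 and Irf8 among them) 0 were called in any comparison by edgeR or limma-voom, and DESeq2 called 1, between A. faecalis and S. aureus. In each comparison 1 of the 7 had an unadjusted p under 0.05. Over all genes this share was 7.68% for A. faecalis against vehicle, 27.0% for S. aureus against vehicle and 28.2% for A. faecalis against S. aureus. Of 7 cDC2 and dermal dendritic cell markers, Mgl2, a lectin of dermal cDC2, was lower with S. aureus than with vehicle (0.323 to 0.496 CPM against 0.517 to 5.13 CPM, adjusted p = 0.0307; lost without S. aureus replicates 2, 3 or 4, with limma-voom and with only these 2 groups in the fit). Its highest value, 5.13 CPM, was in vehicle replicate 3, and its log2 fold change of -2.47 was -1.49 without that library. Irf4 was also lower (log2 fold change -0.98, adjusted p = 0.0498; -0.82 without vehicle replicate 3), a call held in 2 of 12 leave-one-out fits, those without vehicle replicate 4 or S. aureus replicate 1. Cd209d, the neighbour of Cd209a, was lower with A. faecalis than with S. aureus (2.38 to 3.77 CPM against 6.82 to 15.5 CPM, log2 fold change -1.73, adjusted p = 0.0317). Sirpa was higher (448 to 639 CPM against 331 to 358 CPM, log2 fold change 0.64, adjusted p = 0.00786). Its level was far above those of Cd209d and Mgl2, and the part of other cells in it was not tested. The call of Cd209d was lost when any 1 of the A. faecalis libraries, or S. aureus replicates 1, 2 or 3, were left out, and with limma-voom. Of the 7 cDC2 and dermal markers, 2 were called for S. aureus against vehicle (6.84% of all genes) and 2 for A. faecalis against S. aureus (12.7%). For A. faecalis against vehicle 0 were called by edgeR or limma-voom and 1 by DESeq2. There 4 of the 7 had an unadjusted p under 0.05 (7.68% of all genes), and the median log2 fold change was -0.59. Cd209d, Mgl2 and Irf4 were each highest in vehicle replicate 3.

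Of 5 pan dendritic cell markers, Clec4a4 (log2 fold change 2.08, adjusted p = 0.0140) and Dpp4 (0.71, adjusted p = 0.0488) were higher with A. faecalis than with S. aureus, where 12.7% of all genes were called. Dpp4 was lower with S. aureus than with vehicle (-0.89, adjusted p = 0.0325), where 6.84% of all genes were called. The part of cells other than dendritic cells in the level of Dpp4 was not tested. The calls of Dpp4 held in 4 and 6 of 12 leave-one-out fits: the former needed vehicle replicate 2, all A. faecalis libraries and S. aureus replicates 2, 3 and 4, and the latter vehicle replicates 1 and 3, A. faecalis replicate 3 and S. aureus replicates 2, 3 and 4. Of 6 plasmacytoid dendritic cell markers 0 were called in any comparison by edgeR, DESeq2 or limma-voom (0, 0 and 1 at an unadjusted p under 0.05). Of the 6 tested Langerhans cell markers Csf1r alone was called, higher with A. faecalis than with S. aureus (0.97, adjusted p = 0.00415), where 12.7% of all genes were called.

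Markers of other cells that carry class II or Itgax moved with the A. faecalis and S. aureus groups. The summed level of 14 monocyte and macrophage markers was 5900.4 to 8435 CPM with A. faecalis, 4227 to 5369.8 CPM with S. aureus and 4853 to 7575 CPM with vehicle. Of the 14, 6 were called higher and 1 lower with A. faecalis than with S. aureus, where 12.7% of all genes were called in either direction. The summed level of 8 neutrophil markers was 1668 to 3780.0 CPM, 9073 to 14243 CPM and 690.5 to 8429 CPM in the same order. Of the 8, 6 were called lower with A. faecalis than with S. aureus, where 7.62% of all genes were lower. The count of 7 called macrophage markers was 4 without A. faecalis replicates 2, 3 or 4 or S. aureus replicates 2 or 4, and that of 6 neutrophil markers was 2 or 3 without any 1 library of these groups.

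B cell markers summed to 9.24 to 18.4 CPM over all libraries. Cd79b was lower with S. aureus than with vehicle (adjusted p = 0.0395) and higher with A. faecalis than with S. aureus (adjusted p = 0.0318), calls that held in 5 and 6 of 12 leave-one-out fits and that needed S. aureus replicates 2, 3 and 4 and A. faecalis replicates 3 and 4, the former also vehicle replicates 1 and 2 and the latter A. faecalis replicate 2. Of the 6 keratinocyte markers 1 was called and of the 6 fibroblast markers 1 was called between A. faecalis and S. aureus, and 0 of 6 adipocyte markers by any of the 3 tools (0 at an unadjusted p under 0.05). Over all genes, edgeR called 12.7% in that comparison and 6.84% for S. aureus against vehicle. The part of these cells in the levels of the 10 genes was not tested.

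With only the 2 groups compared in the fit, the S. aureus against vehicle calls of Irf1 and Csf2 held, and those of Ifng, Il10, Lgmn, Tap1, Mgl2, Irf4, Dpp4, Ccl22 and Cd79b were lost. With no filter on low counts, those of Ifng, Il10, Csf2, Lgmn, Irf4 and Ccl22 were lost, as were the A. faecalis against S. aureus calls of Cd80, Dpp4 and Il12b. DESeq2 size factors ended the call of Irf4 and the latter call of Dpp4, upper-quartile scaling that of Ccl22 against vehicle, and limma-voom those of Il10 in both comparisons.

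The genes most like the members over the 12 libraries were sought among 15001 genes with a mean of at least 1 CPM. They are a description, and the points share groups and depth. The mean centred level of H2-Aa, H2-Ab1, H2-Eb1 and Cd74 was most like Nt5c (r = 0.91), Brd7 (0.89), Aif1 (0.88), Cd300lh (0.88) and Ms4a6c (0.88), with 1 predicted gene passed over. H2-Eb1, with few reads, has equal weight in that mean, and its r with H2-Aa, H2-Ab1 and Cd74 was 0.43, 0.33 and 0.32. Its part in these matches was not tested. Ciita was most like Naaa (0.93), Irf8 (0.92) and Tnfrsf13b (0.91), with r of 0.95, 0.89 and 0.85 after the group means were subtracted. Cd209a was most like Cd209d (0.92), Gata2 (0.91) and Ifi202b (0.91).

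Cd207 was most like P2ry1 (0.91), Fermt1 (0.90) and Flrt3 (0.90), and Itgax most like Tnni1 (0.96), Cd320 (0.96) and Bola1 (0.92). Xcr1 was most like Tmem132c (0.95), Wdr13 (0.94) and Aldh3a1 (0.93), and Flt3 most like Proser3 (0.85), Ncam2 (0.80) and Prkcz (0.78). Among the members themselves, the highest r outside the class II group was 0.75, between Cd207 and Cd209a (0.67 after the group means were subtracted), and vehicle replicates 3 and 4 were the 2 highest libraries for both.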

How the data were processed

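RNA was sequenced from skin of 12 mice. Per the labels' protocols, frozen tissue was pulverised, ribosomal RNA was depleted and stranded libraries of total RNA were built. The authors deposited estimated counts per gene, unnormalised. The submitters' processing notes name DESeq2 1.34.0, R 4.1.3, kallisto 0.48.0, FastQC 0.12.1 and GRCm39 as build, without roles. How transcripts were summed to genes is not given there. The entry without a gene name (0.00909% to 0.0151% of a library) was left out.

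Estimated counts were rounded and tested with edgeR 4.0.16 in R 4.3.3 (TMM, filterByExpr with minimum count 10 and minimum total 15, robust quasi-likelihood test, two-sided, Benjamini-Hochberg over 18218 genes, called at adjusted p under 0.05). All 12 libraries entered 1 model with a mean per group. Alternatives were DESeq2 1.42.0, limma-voom (limma 3.58.1), DESeq2 size factors, upper-quartile scaling, other filters, a threshold of 0.1, only the 2 groups compared, replicate number as a block, and each library left out. The scripts were tested on simulated counts. Replicate pairs within a group differed by a chi-square of at least 28.0 per degree of freedom, so none was treated as a duplicate. Counting error limits H2-Eb1 and Cd207, which had as few as 20 and 16 counts in a library.

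Lengths are of the longest coding transcript in GENCODE M21 and promoter sequences are from RefSeq, both on GRCm38, a different build from the notes' GRCm39. The members and lists were chosen with earlier results of these data known. The text names all 10 members, up to 3 called genes of each list per comparison by smallest adjusted p, list genes whose level near 0 bears on a label, and the 3 or 5 genes most like a member; a few others are list genes given with their values. Of the list genes, 2 that the rule names are not reported here by themselves; the list counts include them.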

Additional observations from a re-analysis of the deposited data

Results flagged for a closer look

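In 42 groups of 4 libraries, the gap of the highest or lowest library to its nearest neighbour was set against the range of the group, and 3 groups exceeded Dixon's critical ratio for 4 values. About 1 group in 20 does so by chance. H2-Ab1 was at 184 CPM in vehicle replicate 2 and at 117 to 127 CPM in the other 3 vehicle libraries. The log2 ratio of Cd207 to H2-Ab1 was -6.82 in S. aureus replicate 2 and -7.57 to -7.47 in the other 3. The log2 ratio of H2-Ab1 to Itgax was 2.81 in A. faecalis replicate 1 and 3.33 to 3.44 in the other 3.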

How the results depend on the processing

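The count of the 10 genes called for A. faecalis against S. aureus (1) became 3 with DESeq2 (H2-Aa, H2-Eb1, Cd209a), 3 with only the 2 groups compared (H2-Eb1, Cd209a, Itgax), 3 at a threshold of 0.1, and 0 with limma-voom, with no filter and with a mean of at least 1 CPM, which leaves H2-Eb1 and Cd207 untested. For A. faecalis against vehicle (0) it became 2 with DESeq2. With 1 library left out the counts were 0 to 3 for A. faecalis against S. aureus (3 without vehicle replicate 3; 2 without S. aureus replicate 1, H2-Aa and H2-Eb1) and 0 to 0 for the other 2 comparisons. Over all genes the counts were 2, 1246 and 2310 for A. faecalis against vehicle, S. aureus against vehicle and A. faecalis against S. aureus, and 120, 2876 and 3474 with DESeq2; S. aureus against vehicle gave 350 with only the 2 groups compared. With 1 library left out they ranged from 2 to 10, 260 to 1750 and 1313 to 3457.

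Replicate numbers are not known to pair the mice. Deviations of same-numbered libraries correlated at -0.21 to 0.182, with 3 of 12 over 0.1. Those of other-numbered libraries correlated at -0.273 to 0.301, with 9 of 36 over 0.1. These values cannot show whether mice were paired. With the replicate block 0 of the 10 genes were called in each comparison, and H2-Eb1 lost its call for A. faecalis against S. aureus (log2 fold change 1.08, adjusted p = 0.0943); the S. aureus against vehicle calls of Ifng, Il10, Csf2 and Lgmn were also lost.

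Directions turned only with a library left out, and for uncalled values near 0. The log2 fold change ranged from -0.03 to 0.29 for Cd74 and from -0.03 to 0.12 for Flt3 (A. faecalis against vehicle), from -0.08 to 0.09 for Flt3 and from -0.09 to 0.37 for Itgax (S. aureus against vehicle), and from -0.03 to 0.10 for Flt3 (A. faecalis against S. aureus). The ratio of Ciita to H2-Ab1 ranged from -0.06 to 0.12 (A. faecalis against vehicle) and from -0.15 to 0.06 (S. aureus against vehicle), and that of Xcr1 to Cd209a from -0.37 to 0.23 (S. aureus against vehicle). With 1 CPM added in place of 0.1 all 12 ratio tests stayed on their side of the threshold, and so did they with 2 alternatives chosen after seeing the data. These were nothing added (moved by up to 0.14, and Cd207 to H2-Ab1 then overlapped between A. faecalis and S. aureus) and library totals without TMM (moved by up to 0.02). The lowest possible p largely fixed these outcomes in advance. Where no cause is given, the cause was not tested. The limits are 4 mice per group, whole tissue, and few reads for H2-Eb1, Cd207 and Cd209a.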

Other observations

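CD4 is the coreceptor through which T cells bind MHC class II, and some macrophages also carry it. Cd4 was at 13.5, 14.0, 10.5 and 14.4 CPM with A. faecalis, 8.83, 6.17, 5.92 and 5.72 CPM with S. aureus, and 7.60, 7.62, 6.48 and 7.14 CPM with vehicle. The A. faecalis libraries lay above the other 8, and Cd4 was 1.96 times as high as with S. aureus (95% interval 1.56 to 2.48, adjusted p = 0.00283, held in all 12 leave-one-out fits) and 1.81 times as high as with vehicle (1.44 to 2.28, adjusted p = 0.160). Cd3e, a chain of the T cell receptor complex, had a mean of 1.57 CPM (SD 0.710, n = 4) with A. faecalis and of 1.69 CPM (SD 0.384, n = 4) with S. aureus (log2 fold change -0.10, adjusted p = 0.859). Of 9 T and NK cell markers, Cd4 and Ncr1 were called for A. faecalis against S. aureus, where 12.7% of all genes were called (Ncr1 not without A. faecalis replicates 2 or 4 or S. aureus replicates 2, 3 or 4). In the comparisons with vehicle 0 were called by edgeR or limma-voom (2 at an unadjusted p under 0.05 in each), and DESeq2 called 1 in each.

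H2-Ea-ps, the alpha chain gene that would pair with H2-Eb1 and that is defective in mice of the H-2b haplotype, was looked up after its values were seen. It stood at 2.72, 14.8, 5.85 and 9.56 CPM with vehicle, 11.9, 0.947, 2.00 and 0.973 CPM with A. faecalis, and 0, 0.207, 4.04 and 0 CPM with S. aureus. The libraries of each group differed by several fold, the groups overlapped, and it was called in 0 of 3 comparisons by edgeR (adjusted p = 0.834, 0.170 and 0.356; 1 unadjusted p under 0.05).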
